A study of Mus musculus with 4 samples.

Results

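Aminoacyl-tRNA synthetases are the enzymes that attach each amino acid to its tRNA. Their genes were followed in RNA-seq counts of mouse T-helper 2 (Th2) cells. The members were 34 genes, chosen by symbol from a list of cytosolic and mitochondrial synthetases, and all 34 were found among the 50600 genes of the files. Of these, 17 encode cytosolic enzymes, 15 encode mitochondrial enzymes, and Gars and Kars each encode the enzyme of both compartments. Synthetase genes outside the list were not analysed here. The samples were 4 libraries of primary Th2 cells of mouse strain C57BL/6NJ, all in 1 group, which the file headers place at 72 h and after a sort. The labels link a differentiation protocol, name no further treatment, give no sex or age, assign each library its own biosample, and list the same donor entry for all 4. The comparisons are therefore between genes within a library and between replicates, and the spread between these 4 samples may be in part technical.

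The libraries held 1274431 to 1857433 gene counts. A gene with 0 counts could have had up to 3, which is 1.62 to 2.35 on the CPM scale (counts scaled to the library total), and this limit covers counting error only. Counts were assigned by strand, and the labels and headers do not state which strand the kit marks. Many genes share exon bases with a gene on the other strand, here called an opposite exon, and genes that share none held 8.54% to 20.1% of the counts. Levels are given as TPM, computed per exon length from the counts on a gene's annotated strand, and were not taken as mRNA levels. Of the markers of the labelled cell type, 8 of 8 had counts in every library. Cd4 had 148, 78, 22 and 165 counts in replicates 1 to 4, Cd3d had 34, 21, 1 and 79, and the cytokine gene Il13 had 150, 62, 40 and 208, all lowest in replicate 3. Cd3g and Il5 were lowest there too. Cd3e, with 19, 17, 22 and 32 counts, and Gata3, with 63, 25, 32 and 73, were lowest in replicate 2. The cytokine gene Il4 had 104, 110, 84 and 64 counts, lowest in replicate 4, or 72.4, 67.9, 68.0 and 64.3 TPM. Of 9 markers of other cell types, which summed to 544 to 872 counts, 6 had no count in any library, among them Cd8a and Lyz2. The other three were Cd79a with 35, 41, 9 and 2 counts, Epx with 4 counts in replicate 2, and Csf1r at 131 ± 5.35 TPM, which has an exon opposite another gene.

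A synthetase first activates its amino acid with ATP and then transfers it to the matching tRNA, so that the ribosome reads the correct residue. Class I and class II enzymes use unrelated catalytic folds. Several cytosolic synthetases assemble with the scaffold proteins AIMP1, AIMP2 and AIMP3 into the multisynthetase complex. Mitochondria import a separate set of nuclear-encoded synthetases to charge the tRNAs of their own genome. Activated T cells raise protein synthesis and amino acid uptake, and the transcription factor ATF4 is known to induce many cytosolic synthetase genes through C/EBP-ATF response elements when amino acids run short.

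The promoter windows below are shown because they hold the core letters of that response element. RefSeq promoter windows of 300 bases, from 250 before to 50 after the annotated start (GRCm38.p6), were matched by symbol for 25 of the 34 members. No window was used for Cars, Hars, Hars2, Lars, Nars, Pars2, Rars, Vars and Wars. For Hars, Hars2, Lars and Nars, which lie on the same chromosome, this does not show that the symbol was absent from RefSeq. Members without a window are left out of the member counts below. The percentages beside those counts cover all 27025 genes and 32851 windows. The motif TGATGNAA was searched on both strands, its reverse form being TTNCATCA. It was present in 5 of the 12 matched cytosolic or dual members and in 0 of the 13 matched mitochondrial members, against 4.51% of the 27025 genes in the table and 3.97% of its 32851 windows. These matches describe letters only. Capitals mark the motif, and each sequence is printed 5′ to 3′ on the gene's strand. Aars has a match that begins 112 bases before the start and another at base 10 after it (chr8:111033592-111033891, plus strand). In Gars the match begins 30 bases before the start (chr6:55037751-55038050, plus strand), and in Tars 15 bases before it (chr15:11399609-11399908, minus strand). In Iars it begins at base 8 after the start (chr13:49681880-49682179, plus strand), and in Yars at base 4 after it (chr4:129189653-129189952, plus strand).
Aars: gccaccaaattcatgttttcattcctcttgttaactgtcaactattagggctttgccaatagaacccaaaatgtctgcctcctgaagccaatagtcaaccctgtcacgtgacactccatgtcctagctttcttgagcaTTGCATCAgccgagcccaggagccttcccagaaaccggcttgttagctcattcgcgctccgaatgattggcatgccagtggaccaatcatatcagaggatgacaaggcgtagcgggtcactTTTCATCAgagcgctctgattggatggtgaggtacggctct
Gars: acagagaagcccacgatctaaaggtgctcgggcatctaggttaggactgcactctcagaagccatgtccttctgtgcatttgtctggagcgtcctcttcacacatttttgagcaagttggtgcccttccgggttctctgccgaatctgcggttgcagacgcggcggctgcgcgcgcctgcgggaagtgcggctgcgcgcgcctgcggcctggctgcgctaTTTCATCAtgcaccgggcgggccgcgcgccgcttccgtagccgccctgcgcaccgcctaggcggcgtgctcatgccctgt
Iars: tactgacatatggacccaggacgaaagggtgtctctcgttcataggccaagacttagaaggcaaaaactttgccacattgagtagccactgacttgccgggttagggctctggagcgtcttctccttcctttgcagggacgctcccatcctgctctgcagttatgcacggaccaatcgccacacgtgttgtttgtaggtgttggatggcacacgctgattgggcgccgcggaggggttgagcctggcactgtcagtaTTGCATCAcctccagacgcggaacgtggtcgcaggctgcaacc
Tars: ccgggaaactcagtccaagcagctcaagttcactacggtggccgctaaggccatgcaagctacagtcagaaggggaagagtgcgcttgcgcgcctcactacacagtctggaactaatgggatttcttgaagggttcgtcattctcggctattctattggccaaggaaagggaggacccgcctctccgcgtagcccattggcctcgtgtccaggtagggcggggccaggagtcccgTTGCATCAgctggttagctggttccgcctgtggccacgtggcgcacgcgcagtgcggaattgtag
Yars: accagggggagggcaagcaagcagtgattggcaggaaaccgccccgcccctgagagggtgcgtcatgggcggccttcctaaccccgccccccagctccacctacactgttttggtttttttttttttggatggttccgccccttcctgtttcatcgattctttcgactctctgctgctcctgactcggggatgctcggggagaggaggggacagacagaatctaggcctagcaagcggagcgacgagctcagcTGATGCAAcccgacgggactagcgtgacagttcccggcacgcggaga

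All 17 cytosolic and both dual genes had a mean of at least 1 TPM, against 38.5% of all protein-coding genes. Among them Nars, which charges asparagine (chromosome 18, 64499665 to 64516557, mm10), was the highest. Nars had 58.4, 18.1, 10.2 and 96.1 TPM in replicates 1 to 4, a mean of 45.7 ± 39.7 (SD, n = 4) that exceeded 96.1% of protein-coding genes. It was high in replicates 1 and 4 and low in 2 and 3. Gars, the glycine enzyme (chromosome 6, 55038007 to 55079500), followed at 30.4, 13.4, 7.32 and 51.0 TPM. Tars, for threonine (chromosome 15, 11383663 to 11399658), had 24.3, 13.5, 4.14 and 52.9 TPM. Both repeated the order of Nars, with replicate 4 highest and replicate 3 lowest. Sars, for serine, had 21.9, 9.14, 7.72 and 19.4 TPM, and Kars, for lysine, had 17.8, 4.92, 6.67 and 28.2 TPM. Both were higher in replicates 1 and 4 than in 2 and 3. On the CPM scale, the median deviation of protein-coding genes without an opposite exon split the same way, as given below. Vars, the valine enzyme (chromosome 17, 35000987 to 35016322), differed from these in its spread, with 14.32, 12.84, 11.86 and 12.98 TPM.

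The remaining cytosolic genes had means from 3.48 to 13.8 TPM. Farsa and Farsb encode the subunits of the phenylalanine enzyme, which join into 1 protein complex. Farsa had 16, 12, 1 and 32 counts in replicates 1 to 4 and Farsb had 38, 9, 3 and 40, so both were lowest in replicate 3 and highest in replicate 4. Wars, for tryptophan, went from 4 counts in replicate 1 to 11, 14 and 22 in replicates 2, 3 and 4. In TPM, Wars was the only one of the 19 cytosolic and dual genes with its lowest value in replicate 1, at 0.992. Eprs, a single protein that charges both glutamate and proline, had 241, 55, 34 and 123 counts over 18102 bases of exon. This is 11.4, 2.30, 1.87 and 8.38 TPM, so its high counts went with a modest level per length.

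Replicate 4 carried much of the level of several of these genes. Without it the mean was 28.9 TPM for Nars, 13.99 for Tars, against 23.7 with it, and 8.15 for Iars, against 13.2. The mean of Dars was then 7.65 TPM against 12.9 with all 4 libraries, that of Lars 6.80 against 12.9, and that of Yars 3.57 against 7.61. Farsb had 5.38 TPM against 8.74, Farsa 1.75 against 3.48 and Wars 2.48 against 3.83. For Hars it was replicate 1, without which the mean of 13.8 TPM became 7.75.

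**Figure D1:**
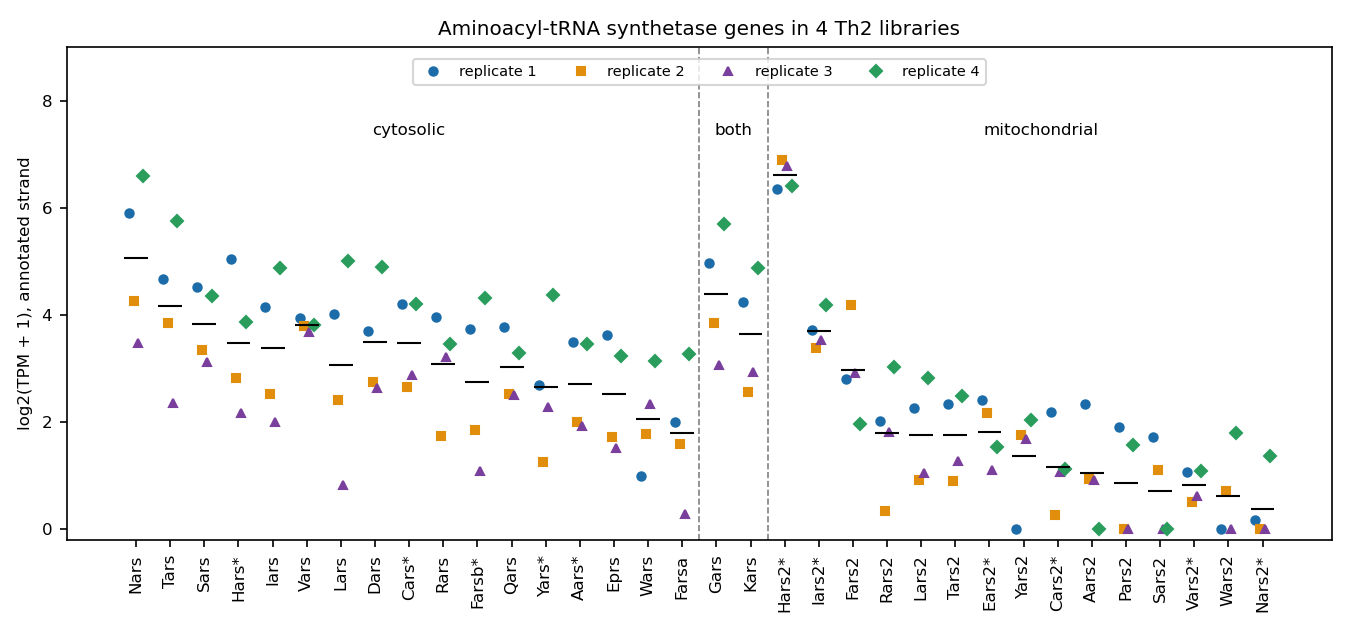
Level of each of the 34 genes as log2(TPM + 1) on the annotated strand, 1 symbol per replicate, with a bar at the mean of the 4 log values and genes ordered by mean TPM within cytosolic, dual and mitochondrial enzymes. An asterisk marks a gene with an exon opposite another gene. Hars2 has the highest mean at 80.5 to 117 TPM, though Nars exceeds it in replicate 4, and most other mitochondrial genes lie below the cytosolic ones.

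Mitochondrial synthetase genes were mostly low, with 1 high member. Of the 15, 11 had a mean of at least 1 TPM and 9 had counts in every library. Hars2, the mitochondrial histidine enzyme (chromosome 18, 36783008 to 36792562), had 80.5, 117, 108 and 83.9 TPM in replicates 1 to 4. Its mean of 97.4 ± 18.0 TPM was the highest of all 34 members and exceeded 97.9% of protein-coding genes. Hars2 has an exon opposite Hars, and which of these genes its counts come from was not tested. Unlike Nars, Hars2 was highest in replicates 2 and 3. Hars2 alone held 16.4% (95% Wilson interval 14.9 to 17.9), 41.8% (39.4 to 44.3) and 43.3% (40.4 to 46.3) of all member counts in replicates 1, 2 and 3, and 13.5% in replicate 4.

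Iars2, the mitochondrial isoleucine enzyme, and Fars2, the phenylalanine enzyme, came next. Iars2 had 12.2, 9.38, 10.5 and 17.2 TPM, and Fars2 had 6.03, 17.1, 6.54 and 2.90 TPM. Fars2 was thus highest in replicate 2 and lowest in replicate 4, and its mean of 8.15 TPM was 5.16 without replicate 2. The other 12 had means between 0.429 and 3.25 TPM. Nars2 had 1, 0, 0 and 9 counts, Pars2 10, 0, 0 and 5, Sars2 9, 5, 0 and 0, and Wars2 0, 5, 0 and 12. At such counts the order of these genes was not detectable at this depth. A count of 0 for Sars2 allows up to 0.899 TPM in replicate 3 and 1.12 TPM in replicate 4. Leaving out 1 library moved 8 of these 12 means by over 1.5 times. Without replicate 4 the mean was 1.91 TPM for Lars2, 1.96 for Rars2, 0.212 for Wars2 and 0.0409 for Nars2. Without replicate 1 it was 0.598 for Aars2, 0.833 for Cars2, 0.664 for Pars2 and 0.381 for Sars2. Those with all 4 libraries were 2.96, 3.25, 0.782 and 0.429 TPM for the former group of genes and 1.47, 1.51, 1.19 and 0.866 TPM for the latter.

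As groups, the cytosolic genes stood above the mitochondrial genes in every library. The cytosolic median was 14.3, 4.73, 4.03 and 17.4 TPM in replicates 1 to 4, and the mitochondrial median was 3.54, 0.888, 1.10 and 2.49 TPM. As log2(TPM + 1), a scale that understates the ratios of low genes, the difference of medians was 1.75, 1.60, 1.26 and 2.40, a mean of 1.75 ± 0.48 (SD, n = 4). No test was made on this difference of medians. Restricted to the 12 cytosolic and 9 mitochondrial genes with no opposite exon, it was 1.92, 1.60, 1.38 and 2.11, with the same mean of 1.75 and an SD of 0.33. The median over all protein-coding genes was 0 TPM in all 4 libraries.

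Set beside the mitochondrial enzyme for the same amino acid, most cytosolic genes were higher, and histidine was reversed. In 9 of 16 pairs the cytosolic gene had the higher TPM in 4 of 4 libraries, with mean differences of 1.29 to 4.67 on the log2(TPM + 1) scale. Their size depends on the pseudocount for low genes. At 0.1 in place of 1 the asparagine difference was 7.02 against 4.67, serine 4.99 against 3.13, proline 3.23 against 1.65, tryptophan 3.05 against 1.43 and alanine 2.78 against 1.67. With 4 libraries, an exact permutation test that flips signs (two-sided) cannot give less than p = 0.13, which is the value for each of these pairs (adjusted p = 0.20 over 16 pairs). No pair could therefore pass 0.05, and the sizes and SDs carry the comparison. The widest was asparagine, where Nars exceeded Nars2 by 4.67 ± 1.00. Sars exceeded Sars2 by 3.13 ± 0.89, a pair in which neither gene has an exon opposite another. The difference of Vars to Vars2 was 2.98 ± 0.25 and that of Tars to Tars2 was 2.40 ± 0.96. Each of these differences was larger than its spread between libraries.

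The proline and alanine pairs show how that spread differed. Eprs exceeded Pars2 by 1.72, 1.72, 1.52 and 1.65 in replicates 1 to 4. Pars2 had 0 counts in replicates 2 and 3, so there the difference is set by Eprs and could not be negative. The same holds, with their own cytosolic genes, for Nars2 in replicates 2 and 3, Sars2 in replicates 3 and 4, Wars2 in replicates 1 and 3, and Yars2 in replicate 1. Aars exceeded Aars2 by 1.14, 1.08, 1.00 and 3.46, where replicate 4 lay far from the others and Aars2 had no count in it. The Aars2 count of 0 in replicate 4 likewise allowed no negative value, and without that library the mean difference was 1.07 against 1.67. Hars went the other way, with differences to Hars2 of -1.31, -4.06, -4.60 and -2.53 and a mean of -3.13 ± 1.49 (exact sign-flip p = 0.13, negative in 4 of 4 libraries).

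In 6 pairs the sign was mixed between libraries. Lars was above Lars2 in 3 of 4 libraries, by 1.31 ± 1.06 on average, and Yars above Yars2 in 3 of 4, by 1.28 ± 1.499. Eprs differed from the glutamate enzyme Ears2 by 0.71 ± 0.94. For isoleucine and phenylalanine the mean lay below 0. Iars differed from Iars2 by -0.31 ± 1.05, Farsb from Fars2 by -0.22 ± 2.23 and Farsa from Fars2 by -1.18 ± 1.87. In these 6 pairs the SD was close to the mean or above it, and exact sign-flip p-values ran from 0.25 to 1.0. Without replicate 3 the Iars difference was 0.09, and without replicate 2 or 3 the Farsb difference was 0.49 or 0.32. Without replicate 4 the Farsb difference was -1.07, that of Iars -0.65, that of Farsa -2.01 and that of Eprs to Ears2 0.39. Without replicate 2 the last was 1.11. Leaving out 1 library moved the Farsa difference between -0.70 and -2.01 and the Yars difference between 0.81 (replicate 1) and 1.87 (replicate 2).

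**Figure D2:**
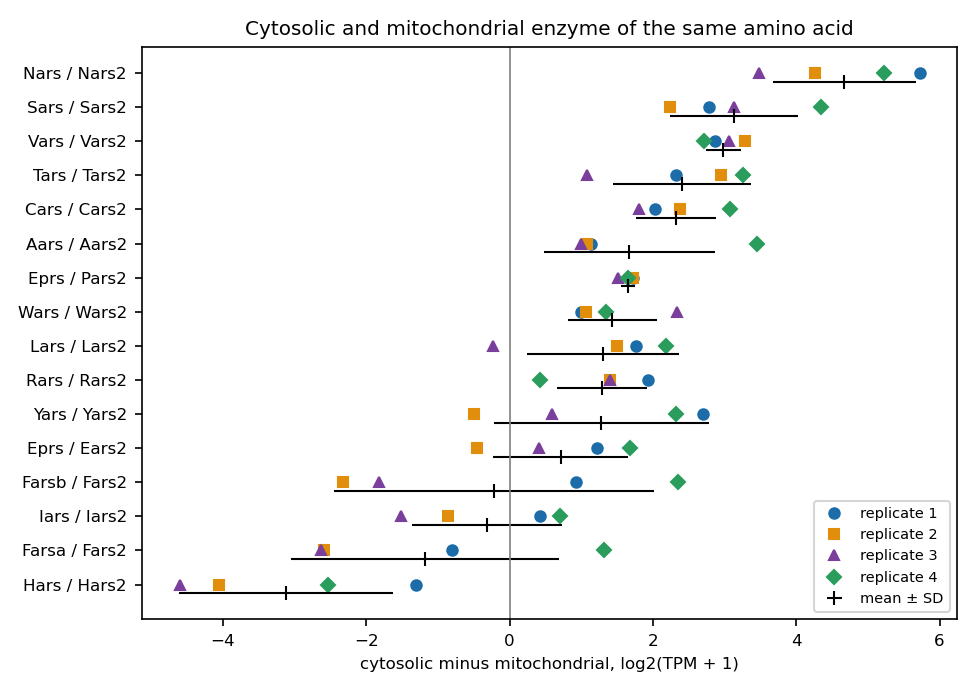
Difference in log2(TPM + 1) between the cytosolic and the mitochondrial gene of the same amino acid, 1 symbol per replicate, with a black tick and bar below them for mean ± SD over the 4 libraries. Points lie right of 0 in all 4 libraries for 9 of 16 pairs, from Nars at 4.67 ± 1.00 down to Rars at 1.29 ± 0.63, while Hars lies left of 0 in all 4.

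What a count holds depends on the strand it was assigned to. An opposite exon is present in 11 of the 34 members, against 22.1% of all protein-coding genes, a difference that was not tested. These members form 11 pairings, with Hars and Hars2 facing each other and Iars2 facing a further pair of genes. With Hars taken as the member in the pairing with Hars2, in 6 of the 11 the opposite gene had more counts per kb of exon than the member in 4 of 4 libraries, and in 1 it had fewer in all 4. The 6 include Gm24103, a gene of only 77 bases. Gm20483, annotated as antisense, shares 465 of its 851 bases with Vars2, of which 296 lie in Vars2 coding sequence. Its counts were 187, 265, 194 and 105, and the whole of Vars2 had 7, 3, 3 and 5. Per kb this was 221 ± 76.9 for Gm20483 and 0.824 ± 0.351 for Vars2. Gm24103 is annotated as a miRNA gene of 77 bases within an exon of Aars outside its coding sequence. It had 12, 11, 6 and 17 counts, against 111, 37, 26 and 75 for the whole of Aars. Per kb this was 149 ± 58.6 for Gm24103 and 6.71 ± 4.17 for Aars. A density over 77 bases takes no account of fragment length, so it is not a like measure to that of Aars.

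Further pairings differed in the same direction. The antisense gene 2010103J01Rik, within the extent of Iars2, had 65.1 ± 42.9 counts per kb against 12.8 ± 1.70 for Iars2. C230038L03Rik, a noncoding gene whose 5′ end overlaps that of Nars2 by 284 bases, had 49, 96, 77 and 38 counts against 1, 0, 0 and 9 for Nars2. Naxd, which encodes a repair enzyme for damaged NADH, overlaps the 3′ end of Cars2 by 422 bases. Naxd had 439, 497, 479 and 273 counts against 30, 2, 8 and 7 for Cars2. In all 3 the opposite gene was denser in 4 of 4 libraries.

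Hars and Hars2 face away from each other and share 195 bases at their 5′ ends, 90 of them in Hars coding sequence. Hars, the cytosolic enzyme, had 74, 16, 7 and 22 counts in replicates 1 to 4, while Hars2 had 403, 661, 467 and 291. Hars was highest in replicate 1 where Hars2 was not, and per kb Hars2 exceeded Hars in 4 of 4 libraries, at 106 ± 36.2 against 14.97 ± 15.2. The shared bases are 4.56% of the Hars2 exons. The files give 1 count per gene, so how many of the Hars2 counts fall in the shared bases was not tested.

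The remaining pairings went the other way or were mixed. Gm15580, a processed pseudogene within Cars that shares 211 bases with it, had 1, 2, 0 and 0 counts, against 135, 46, 42 and 93 for Cars. Iars2 shares 2034 bases, 22.9% of its exons, with the 3′ end of Rab3gap2, and their densities were close, at 12.8 ± 1.70 and 13.4 ± 3.69 counts per kb. Sgpp2 against Farsb, C77080 against Yars and Ubfd1 against Ears2 were mixed as well, with the denser gene differing between libraries.

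**Figure D3:**
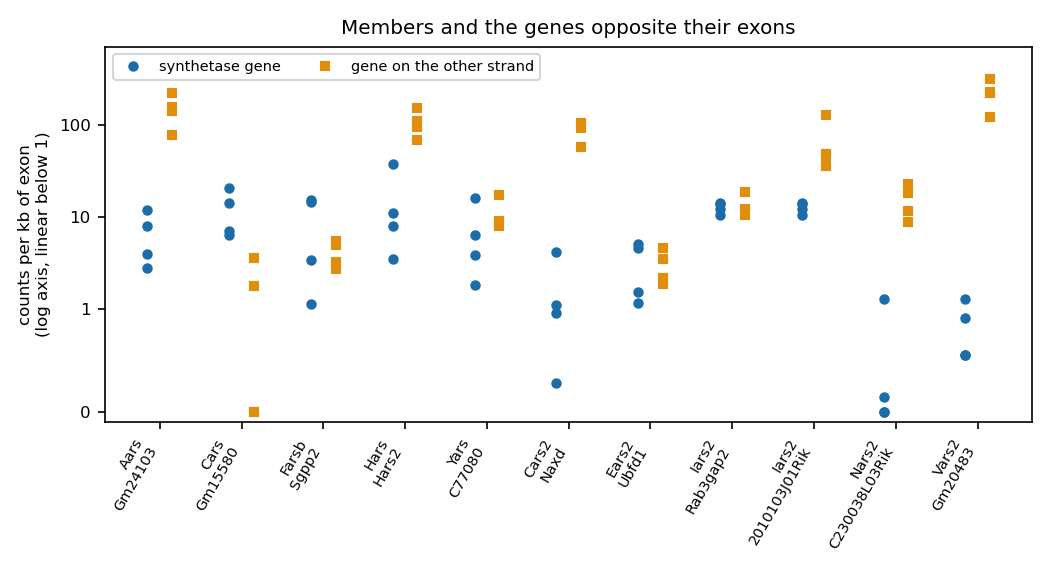
Counts per kb of exon, on a log axis that is linear below 1, for each member and the gene opposite its exons, with 1 point per library. The gene on the other strand lies above the member in 4 of 4 libraries for Aars, Hars, Cars2, Nars2, Vars2 and 1 of the Iars2 pairings, and below it in all 4 for Cars. The gene opposite Aars has 77 bases, where density is not a like measure.

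Between replicates, the members' counts differed. All 34 members held 0.138%, 0.0851%, 0.0746% and 0.169% of the counts in replicates 1 to 4. The shares were higher in replicates 1 and 4 than in 2 and 3. Over the same libraries, protein-coding genes without an opposite exon held 14.96%, 7.07%, 7.48% and 18.7% of all counts, and the part of this in the members' shares was not tested. In bulk RNA, fewer cells and less RNA per cell cannot be told apart. The 26 members with a mean count of at least 10, 19 cytosolic or dual and 7 mitochondrial, deviated from their own 4-library mean by a median of 0.71, -0.65, -0.79 and 0.84 on the log2(CPM + 1) scale. The 3514 protein-coding genes without an opposite exon that passed the same filter deviated by 0.58, -0.67, -0.68 and 0.96. The 3925 genes with an opposite exon stayed within 0.04 of 0 (0.01, 0.03, 0.04 and -0.03). The 9 members with an opposite exon deviated by 0.75, -0.74, -0.61 and 0.43. The 19 cytosolic and dual members deviated by 0.75, -0.71, -0.88 and 1.20, and the 7 mitochondrial members by 0.70, -0.28, -0.14 and 0.04. The difference between these groups of members was not tested.

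**Figure D4:**
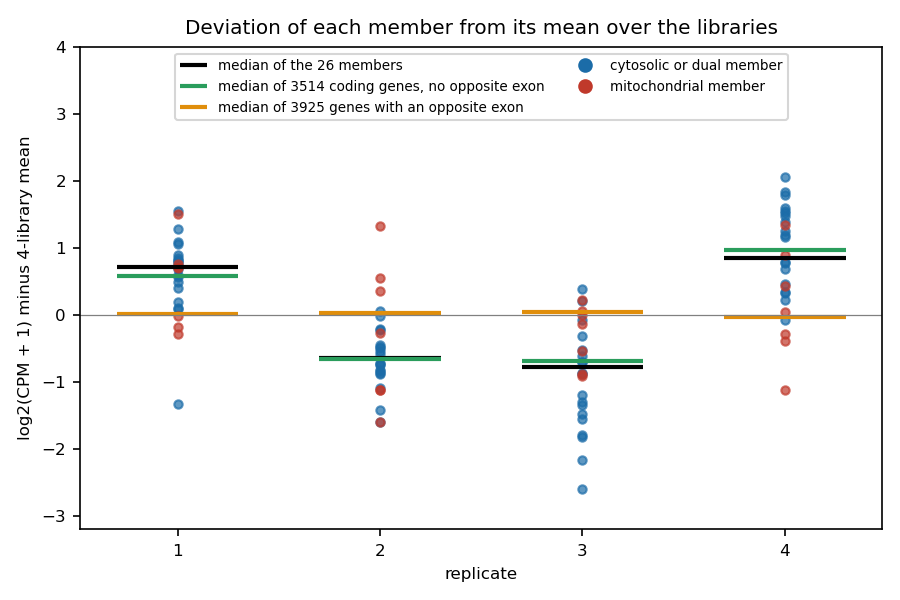
Deviation of log2(CPM + 1) from the gene's own mean over the 4 libraries, by replicate, for the 26 members with a mean count of at least 10, with cytosolic and dual members in blue and mitochondrial members in red. Lines give medians, at 0.71, -0.65, -0.79 and 0.84 for the members and near 0 for the 3925 genes with an opposite exon.

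Of the 26 members, 14 were highest in replicate 4 and 10 in replicate 1, and 14 were lowest in replicate 3. Among all 7752 genes that passed the filter, 43.3% were highest in replicate 4, 23.4% highest in replicate 1 and 32.8% lowest in replicate 3. For the 3514 protein-coding genes without an opposite exon these shares were 61.8%, 28.1% and 44.9%. Of the 26, 24 varied between libraries by more than Poisson sampling (chi-square test on counts with TMM-scaled library sizes, Benjamini-Hochberg adjusted p below 0.05), against 88.2% of all 7752 genes tested and 88.5% of protein-coding genes without an opposite exon. The members' share is near that background. The largest deviations from sampling belonged to Hars2 (adjusted p = 5.12e-42) and Nars (adjusted p = 5.26e-34). Those that did not pass were Vars (94, 95, 67 and 59 counts, adjusted p = 0.087) and Iars2 (127, 110, 94 and 124 counts, adjusted p = 0.33).

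A test of each library against the other 3 made no call among the members. With edgeR's quasi-likelihood test, 0 of 26 members passed an adjusted p of 0.05 in any library, against 0%, 0.0129%, 0.0387% and 0% of all genes for replicates 1 to 4. At an unadjusted p under 0.05 there were 0, 0, 5 and 5 members, against 0.426%, 2.79%, 9.37% and 8.81% of all genes, and DESeq2 also called 0 members. Such a test has 1 sample on one side and describes that library, not a condition.

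Counted against protein-coding genes without an opposite exon, the 23 members of that kind were again lowest in replicate 3. Of all counts they held 0.0828%, 0.0356%, 0.0277% and 0.109% in replicates 1 to 4. Of the counts of those genes they held 0.553% (95% Wilson interval 0.526 to 0.582), 0.504% (0.467 to 0.544), 0.370% (0.335 to 0.408) and 0.583% (0.553 to 0.615) in the same order. These intervals cover counting error only, not the spread between cultures. The 12 cytosolic genes held 423, 369, 272 and 433 per 100000 such counts, and the 9 mitochondrial genes 53.3, 71.6, 49.0 and 53.4. Replicate 3 was the lowest for both, though the mitochondrial value rests on 53 counts there.

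Single genes differed in how far they followed this. Lars, the leucine enzyme, followed it with 25.9, 16.8, 2.77 and 41.2 per 100000 such counts, and Iars had 38.7, 25.1, 14.8 and 51.3. Vars went the opposite way with 35.3, 72.4, 62.0 and 24.8, high in replicates 2 and 3. Fars2 had 5.63, 36.6, 12.9 and 2.10, also highest in replicate 2. When library sizes were scaled on genes without an opposite exon, a choice made after the data were seen, Vars (adjusted p = 2.98e-16), Fars2 (adjusted p = 3.17e-25) and Iars2 (adjusted p = 2.15e-10) varied beyond sampling in the chi-square test. Aars, Cars, Kars, Lars2 and Tars2 then did not pass, with adjusted p-values from 0.060 to 0.51. In all, 21 of 26 members passed, against 84.1% of all genes and 75.4% of protein-coding genes without an opposite exon.

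Partners of the synthetases were present as well. Of the 3 scaffold genes of the multisynthetase complex, 2 had enough counts to be tested. Aimp1 had 8.40, 7.04, 8.69 and 9.48 TPM and Aimp2 32.0, 19.7, 28.2 and 39.5 TPM, and neither varied beyond sampling in the chi-square test (adjusted p = 0.52 and 0.56). Both have an exon opposite another gene. Eef1e1, which encodes AIMP3, has none, and it had 13, 3, 0 and 9 counts. The 7 listed members that belong to the complex are Dars, Eprs, Iars, Kars, Lars, Qars and Rars, and synthetases outside the list were not analysed. These 7 genes had a median of 14.6, 4.73, 4.68 and 28.2 TPM. That of the other 12 cytosolic and dual genes was 15.9, 5.70, 4.09 and 18.1 TPM, so the medians were close in replicates 1 to 3 and differed most in replicate 4.

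In mitochondria, glutaminyl-tRNA is made by charging with glutamate and amidation, for which Gatb, Gatc and Qrsl1 encode the subunits. Gatc had 319, 249, 250 and 167 counts (127 ± 21.4 TPM), while Gatb had 7, 3, 0 and 15 and Qrsl1 9, 3, 0 and 7. Mtfmt, which formylates the initiator methionyl-tRNA, had 0, 4, 7 and 6 counts. Gatc was the only one of these 4 to pass the filter on low counts, and it varied beyond sampling in the chi-square test. Of 12 genes of tRNA export, processing and proofreading, 6 passed the count filter and 5 of these varied beyond sampling, against 88.2% of all genes tested. Xpot, the tRNA export receptor, had 11.6, 2.01, 0.823 and 17.0 TPM. Trnt1, which adds the CCA end, had 102 ± 23.4 TPM, and Ssb, which encodes the La protein that binds new tRNA transcripts, 127 ± 59.3 TPM. Trnt1 and Ssb have exons opposite other genes. Aarsd1, another of these 12 genes, had 0 counts in all 4 libraries.

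Genes of the ATF4 amino acid response had counts alongside the synthetases. Of 17 genes, 15 had a mean of at least 1 TPM, against 38.5% of all protein-coding genes. The count filter was passed by 12, and 12 of these 12 varied beyond sampling, as did 88.2% of all genes tested. Atf4 itself had 90.7, 34.3, 25.9 and 80.1 TPM in replicates 1 to 4, high in the same libraries as Nars. Asns, which makes asparagine, had 5.94, 2.49, 1.09 and 29.3 TPM. Psat1, of serine synthesis, had 24.3, 3.56, 7.003 and 40.9 TPM, and Mthfd2, of mitochondrial folate metabolism, had 30.1, 6.52, 5.13 and 38.2 TPM. All 3 were highest in replicate 4, and the protein-coding genes without an opposite exon were high there too. Phgdh, Shmt2, Ddit4 and Eif2ak4 were also highest in replicate 4, as were Sesn2, Trib3, Slc7a11 and Chac1, which did not pass the count filter. Atf4, Eif4ebp1, Cebpb, Ddit3, Psph and Nupr1 were not. Eif4ebp1, which encodes an inhibitor of translation initiation, was highest in replicate 1, with 29.96, 7.59, 8.59 and 17.4 TPM. Cebpb, a transcription factor gene, had 38, 10, 4 and 0 counts, lowest in replicate 4. Ddit3, lowest in replicate 4, and Psph were the highest of the list at 156 ± 27.6 and 151 ± 15.2 TPM, but both have exons opposite another gene. Shmt2 and Cebpb have an opposite exon too. Chac1 had 4 counts in replicate 4 and 0 elsewhere.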

How the data were processed

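Total RNA-seq, by the labels' assay name, was analysed for 4 libraries of mouse Th2 cells in 1 group, with replicate numbers from the labels. The name of the linked protocol refers to poly(A) RNA. Used here were fragment counts as deposited by the authors, 1 value a gene, without normalization. Per the file headers they were made with featureCounts 1.4.6-p4 from STAR alignments, over exons of GENCODE M13, counting only fragments with both ends mapped, at strand option 1. The labels name assembly mm10. The STAR version and the strand chemistry of the kit are not given in the sources used here.

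Symbols came from GENCODE M21 by gene identifier, and 50376 of 50600 identifiers matched. TPM and CPM were computed from the counts. An opposite exon shares at least 1 base with the member on the other strand, and coding sequence was taken from GENCODE M21. The chi-square test against Poisson sampling used TMM factors from edgeR 4.0.16 of genes whose mean count reached 10. Pairs were compared by an exact two-sided sign-flip permutation over libraries. Benjamini-Hochberg adjustment covered all 7752 genes or all 16 pairs. DESeq2 1.42.0, R 4.3.3 and Python 3.11.15 were also used. The tests across genes were tested on simulated counts. All 34 members were named, with the genes opposite their exons and the leading genes of 5 lists of partner and response genes. One marker gene is not reported here. Members and lists were chosen with earlier results of these data known. Alternatives were another pseudocount (0.1), FPKM, other size factors, other filters, other tests, and leaving out each library.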

Additional observations from a re-analysis of the deposited data

Results flagged for a closer look

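In 2 of 53 sets of 4 library values, a single library lay far from the others by Dixon's ratio, the gap to the nearest value over the whole range. Chance flags about 1 in 20 such sets. For the TPM of Nars2, the mitochondrial asparagine enzyme, the ratio was 0.923, with 0.123, 0, 0 and 1.59 TPM in replicates 1 to 4, from 1, 0, 0 and 9 counts. Nars2 shares 284 bases with C230038L03Rik on the other strand, whose counts were 49, 96, 77 and 38.

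For Aars against Aars2 on the log2(TPM + 1) scale the ratio was 0.942, with differences of 1.14, 1.08, 1.00 and 3.46. In replicate 4 Aars2 had 0 counts and Aars 75.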

How the results depend on the processing

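The difference of the cytosolic and mitochondrial medians stayed above 0 under every alternative run, from 1.60 with FPKM or with members of at least 1 TPM to 2.20 with a pseudocount of 0.1, and from 1.54 to 1.92 with 1 library left out. The 9 of 16 pairs became 5 of 7 with only genes lacking an opposite exon, where fewer pairs are left, and ran from 9 to 11 with 1 library left out. Of 96 pair differences with another pseudocount, FPKM or 1 library left out, 93 kept their sign. The 3 that reversed were Farsb against Fars2 without replicate 2 (0.49) or 3 (0.32) and Iars against Iars2 without replicate 3 (0.088). With 1 library left out, the former ran from -1.07 to 0.49 and the latter from -0.65 to 0.088. At a mean of at least 5 TPM, 3 of 15 mitochondrial genes were left, while 9 to 13 had at least 1 TPM with 1 library left out. The chi-square count of 24 of 26 members (88.2% of all genes) was 20 to 25 of 24 to 27 with 1 library left out (76% to 81.1%), 25 of 26 with median-of-ratios factors (88.3%) and 31 of 34 with no filter (70.4%). It was 0 with edgeR or DESeq2 testing each library against the other 3, where 1 sample stands on one side. The members' mean share of all counts was 0.117%, and 0.0994% to 0.131% with 1 library left out. For only the 23 members without an opposite exon, over protein-coding genes of that kind, it was 0.503%. No comparison of conditions, paired or not, was possible because all libraries belong to 1 group. At these depths members with a mean count under 10, all 8 of them mitochondrial, could not be ordered.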

Other observations

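Class I and class II enzymes were compared within compartments as a description. The 8 class I genes among the cytosolic and dual enzymes had a median of 14.4, 4.53, 4.36 and 15.2 TPM in replicates 1 to 4, and the 10 class II genes 19.9, 5.92, 4.69 and 23.8 TPM. Eprs, which holds a domain of each class, was left out. In mitochondria the 8 class I genes had a median of 3.31, 0.763, 1.13 and 2.81 TPM and the 7 class II genes 4.07, 0.905, 0.890 and 1.99 TPM. The class medians of the mitochondrial genes therefore changed order between libraries.

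Amino acid transporter genes had counts in every library. Slc3a2, the heavy chain shared by several transporters, had 15.98, 15.9, 23.6 and 27.3 TPM, and its light chain Slc7a5, which carries large neutral amino acids, had 9.91, 8.18, 2.41 and 32.6 TPM. Slc1a5, a glutamine carrier, had 20.7, 3.45, 6.19 and 27.2 TPM. Slc38a1 had 9.57, 6.59, 9.82 and 9.11 TPM. Of the 7 transporter genes, 6 varied beyond sampling in the chi-square test, against 88.2% of all genes tested.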
